A study of Homo sapiens with 47 samples.

Results

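The HOX cluster genes of human cells were described here in the RNA of HEK293T cells and of a line derived from them that carries a mutant EAF1. Members were the protein-coding genes whose symbol is HOXA, HOXB, HOXC or HOXD followed by a number, and 39 of the 58395 genes in the count table met this rule. HEK293T is a human embryonic kidney cell line, and total RNA depleted of ribosomal RNA was sequenced in 3 libraries of wild-type cells and 3 libraries of EAF1-mutant cells. According to the study's methods the mutant is a single clonal line, made by CRISPR knock-in of a short stretch of alanine codons on both alleles of EAF1, so the mutation and other properties of that clone cannot be told apart. The study's methods speak of at least 3 biological replicates for its experiments in general. Its reporting summary says that experiments were done at least 3 times, with exceptions that do not include RNA-seq. The labels of these libraries number the replicates and do not say whether they came from separate cultures. The p-values given here measure the spread between these libraries, part or all of which may be technical.

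HOX genes encode homeodomain transcription factors that give cells of the embryo their position along the body axis. They lie in 4 clusters, in each of which the genes are numbered by paralogue group from the end that is switched on early and anteriorly (group 1) to the end that is switched on late and posteriorly (group 13). Genes of the same number in different clusters are paralogues that arose by duplication of an ancestral cluster, and adult and cultured cells often keep a stable pattern of active and silent HOX genes. EAF1 is a partner of the elongation factor ELL and binds the Mediator subunit MED26.

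In the GRCh38 annotation the HOXA cluster spans chr7:27092993-27200091 with 11 genes, HOXB spans chr17:48528526-48728750 with 10, HOXC spans chr12:53938831-54056030 with 9, and HOXD spans chr2:176092721-176190907 with 9. Sequencing depth was 59137210, 52541541 and 55637032 counts for wild type, and 57198018, 53369621 and 66611451 for the EAF1 mutant. HOX genes took 0.0761%, 0.0775% and 0.0786% of the counts in the wild-type libraries and 0.119%, 0.119% and 0.118% in the EAF1-mutant libraries. RNA of EAF1 itself stood at 57.5, 58.4 and 56.5 CPM (counts scaled to a common library size with TMM factors) in wild-type libraries and at 19.7, 17.9 and 18.8 CPM in mutant libraries, but the altered codons leave that RNA countable, so its level is no check of the labels.

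Levels of different genes were compared as CPM per kb of annotated exon. In wild-type cells RNA from all 4 HOX clusters was detected, and 35 of the 39 genes averaged 1 CPM or more, the others being HOXB1, HOXC12, HOXD1 and HOXD12. The summed level of HOXA was 142, 139 and 142 CPM per kb in the 3 libraries (mean 141 ± 1.93, SD, n = 3), which was 44.5% of the HOX total. HOXD followed with 73.2 ± 1.76 CPM per kb, HOXB with 67.2 ± 1.82 and HOXC with 35.3 ± 1.17 (SD, n = 3 each), and the ranges of the 3 libraries did not overlap between any of the 4 clusters. The sums rest on a few abundant genes: by the mean of log2 levels over the genes of a cluster, HOXA still led with 3.13, but HOXB (1.63) and HOXC (1.37) stood above HOXD (1.30).

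**Figure D1:**
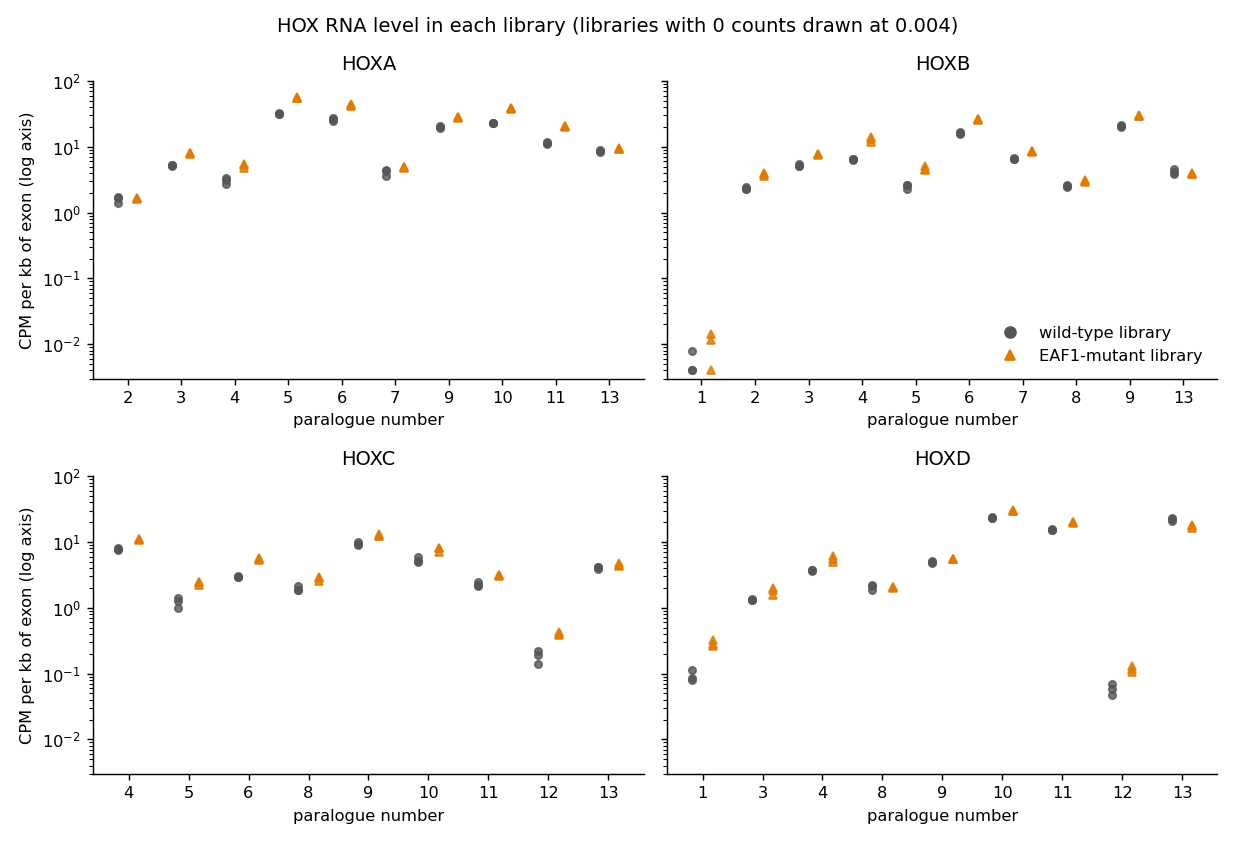
Level of each HOX gene in CPM per kb of exon (log axis) by paralogue number, 1 panel per cluster, with each of the 3 wild-type libraries as a circle and each of the 3 EAF1-mutant libraries as a triangle (1 gene is not drawn). HOXA5 is highest in wild-type cells at 32.1 CPM per kb and HOXB1 lowest, and for most genes each mutant triangle lies above each wild-type circle.

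HOXA5, a regulator of lung and axial skeleton development, had the highest wild-type level of the 39 genes, with 32.5, 31.9 and 32.0 CPM per kb in the 3 libraries. Its neighbour HOXA6 followed with 27.3, 24.9 and 26.4 CPM per kb. Of the exon bases of HOXA6, 39.3% lie opposite exons of the antisense RNA HOXA-AS3, so its count depends on whether the counting used strand. HOXA10, which acts in uterine development and in blood progenitors, had 22.7, 23.4 and 22.7 CPM per kb. HOXA5, HOXA6 and HOXA10 lie in the middle and the posterior part of HOXA. The lowest gene of the cluster was the anterior HOXA2, with a mean of 1.60 CPM per kb. Levels did not simply follow position, since the middle genes HOXA4 (3.08) and HOXA7 (4.07) stood below the anterior HOXA3 (5.28). In HOXB the leading gene was HOXB9 with 20.3, 21.0 and 21.6 CPM per kb, ahead of HOXB6 with 15.7, 16.9 and 16.5 and HOXB7 with 6.51, 6.60 and 6.72. HOXC had the lowest sum, and its leading genes were HOXC9 with 9.21, 9.06 and 9.99 CPM per kb, HOXC4 with 7.56, 7.84 and 8.00, and HOXC10 with 5.20, 5.03 and 5.84. In HOXD the RNA came mostly from the posterior end, whose genes pattern limbs and digits.

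HOXD10 had 23.1, 23.6 and 24.0 CPM per kb, HOXD13 had 20.5, 22.5 and 23.0 CPM per kb, and HOXD11 had 15.2, 15.2 and 15.6. Between HOXD11 and HOXD13 lay HOXD12, with 7, 9 and 8 counts per library, or a mean of 0.0584 CPM per kb. HOXD10 and HOXD11 share 452 bases of exon on the same strand, so the division of reads between them is uncertain. Of the 38 pairs of genes next to each other in the order of wild-type levels, 17 had overlapping libraries. Among the highest 7 genes, HOXD10, HOXA10, HOXD13, HOXB9 and HOXA9 formed a run in which each gene overlapped the next, whereas HOXA5 and HOXA6 stood apart. Levels tended to be higher toward group 13 in HOXA, HOXB and HOXD (Spearman's rho between number and level 0.44 over 11 genes, 0.55 over 10 and 0.45 over 9) and not in HOXC (-0.15 over 9). These correlations are across genes of the same libraries, which are not independent replicates.

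In EAF1-mutant cells most HOX genes had more RNA than in wild-type cells. A gene was called when edgeR's quasi-likelihood test gave an adjusted p under 0.01 (Benjamini-Hochberg over 28025 tested genes) with a log2 fold change over 0.5 in size. By this rule 17 of the 39 HOX genes were higher and 0 lower, against 11.0% and 9.36% of all tested genes, and against 10.5% and 11.7% of the 13616 protein-coding genes that averaged 1 CPM or more. At the same adjusted p and any fold, 29 HOX genes were higher and 1 was lower, beside 20.5% and 21.1% of all tested genes. In 34 HOX genes each mutant library lay above each wild-type library and in 1 the reverse held, beside 29.2% and 28.1% of tested genes. For the 0 lower calls by edgeR, the count was 1 at an unadjusted p under 0.05, and DESeq2 likewise called 0 at the same thresholds.

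Of the 39 genes 38 passed the filter on low counts, and the remaining gene, HOXB1, a hindbrain gene, had 0, 1 and 0 counts in wild-type and 0, 2 and 2 in mutant libraries. HOXD1 and HOXD12 passed the filter only because of their mutant libraries, and without these 2 genes 16 HOX genes were higher, a choice made after the data were seen. The median log2 fold change of the 38 tested genes was 0.50, with quartiles of 0.28 and 0.75, beside 0.01 for all tested genes. Against the wild-type mean it was 0.50, 0.53 and 0.49 in the 3 mutant libraries. Scaling mattered for these counts: with library totals in place of TMM factors the median of all tested genes moved to 0.13 and that of the HOX genes to 0.61, and 26 HOX genes were higher. The calls over all genes moved with it from 3071 higher and 2624 lower to 4169 and 1840.

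**Figure D2:**
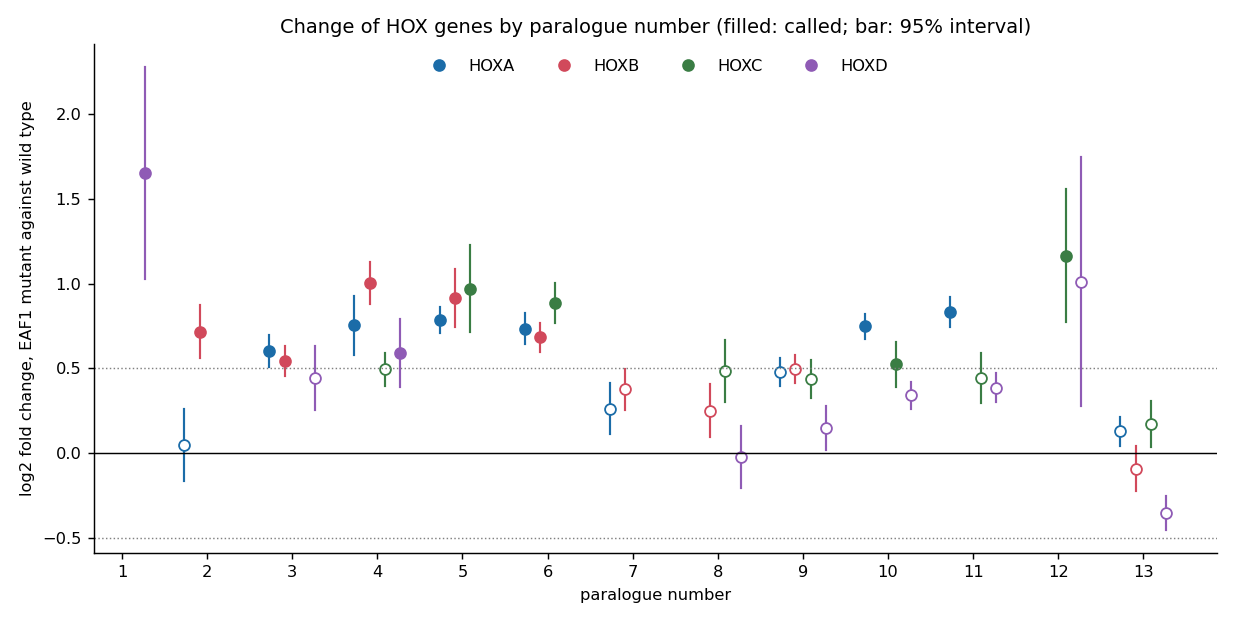
Log2 fold change of tested HOX genes (1 of the 38 is not drawn) in EAF1-mutant against wild-type cells by paralogue number, coloured by cluster, with 95% intervals from edgeR's fit, filled where called and with dotted lines at a log2 fold change of 0.5 in either direction. The 17 filled points are all above 0.5, and the 4 genes of group 13 lie between -0.35 and 0.17.

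The largest fitted rise was that of HOXD1, the anterior end of HOXD, which passed the filter only through its mutant libraries, so that its test and its rank carry less weight than those of the other genes. It had 9, 11 and 8 counts in the wild-type libraries and 32, 28 and 42 in the mutant ones. The groups did not overlap, and the log2 fold change was 1.65 (SE 0.30, adjusted p = 6.82e-05 by edgeR), at a mutant mean of only 0.55 CPM. Of the exon bases of HOXD1, 60.1% lie opposite exons of the antisense RNA HAGLR and another antisense gene, and HAGLR rose as well. The libraries were made with a stranded kit, but whether the counting used strand is not stated, and without strand the reads of HOXD1 and of its antisense partners cannot be told apart. The promoter of HOXD1 and that of its paralogue HOXB1 are shown because they belong to the gene with the largest rise and to a gene of the same number with almost no reads. They are the 250 bases before the start in RefSeq (GRCh38.p14), chr2:176188418-176188667 on the plus strand and chr17:48531012-48531261 on the minus strand, written 5′ to 3′ with motif matches in capitals.
HOXD1: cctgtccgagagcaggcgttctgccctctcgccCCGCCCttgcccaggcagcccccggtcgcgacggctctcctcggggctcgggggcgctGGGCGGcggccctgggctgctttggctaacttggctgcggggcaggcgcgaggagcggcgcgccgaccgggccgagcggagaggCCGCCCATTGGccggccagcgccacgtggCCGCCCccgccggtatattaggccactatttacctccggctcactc
HOXB1: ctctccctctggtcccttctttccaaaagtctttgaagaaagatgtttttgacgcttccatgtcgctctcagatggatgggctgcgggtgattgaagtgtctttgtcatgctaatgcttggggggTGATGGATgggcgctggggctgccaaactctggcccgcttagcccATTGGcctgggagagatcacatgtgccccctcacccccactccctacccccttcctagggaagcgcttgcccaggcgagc

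Motifs were searched on both strands, and matches may share bases. The core promoter motif was TATAAA. The motif of the factor NFY was CCAAT, and that of the factor SP1 was GGGCGG. A form of the joint HOX and PBX motif was TGATNNAT, and a motif of nuclear receptors was AGGTCA. The HOXD1 window held 4 matches to GGGCGG and 1 to CCAAT, with 74.8% G and C and 31 CG pairs. The HOXB1 window held 1 match to TGATNNAT and 1 to CCAAT, with 57.2% G and C and 7 CG pairs. Over 35116 promoters of the same length, 42.6% held GGGCGG, 32.0% CCAAT, 12.1% AGGTCA, 10.7% TATAAA and 6.47% TGATNNAT, and the medians were 58.0% G and C and 11 CG pairs. The table had entries for 20 of the 39 HOX genes, with 26 different windows. Of these 26, 13 held GGGCGG, 17 CCAAT, 5 TATAAA, 3 TGATNNAT and 0 AGGTCA, and their median was 19.5 CG pairs. Most of the windows belong to HOXA or HOXD, with few for HOXB and HOXC, and several are alternative starts of HOXA3. These counts thus do not weigh genes or clusters alike. A match describes the letters of the window and no more.

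HOXC12, a posterior gene near the end of HOXC, had 26, 36 and 33 counts in wild-type and 76, 78 and 91 in mutant libraries. Its log2 fold change was 1.16 (SE 0.19, adjusted p = 1.48e-05), again at a low level, with a mutant mean of 1.33 CPM. HOXD12, the paralogue of HOXC12, went from 7, 9 and 8 counts to 20, 15 and 21, a log2 fold change of 1.01 that did not reach the threshold (adjusted p = 0.0201). Among abundant genes the largest rise was that of HOXB4, known for its role in expansion of blood stem cells. HOXB4 stood at 12.7, 12.96 and 12.9 CPM in the wild-type libraries and at 23.4, 26.2 and 27.7 CPM in the mutant libraries, a log2 fold change of 1.00 (SE 0.06, adjusted p = 1.45e-12). Every mutant library was thus well above every wild-type library, and the mutant libraries were more spread out.

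HOXC5 had 1.63, 2.02 and 2.24 CPM in wild-type and 3.98, 3.56 and 3.95 CPM in mutant libraries (log2 fold change 0.97, adjusted p = 5.12e-07). Of its exon bases 67.3% are also exon of unnamed genes on the same strand, so its count depends on how shared reads were treated. HOXB5 rose from 4.24, 4.87 and 4.82 CPM to 8.33, 9.41 and 8.51 CPM (log2 fold change 0.91, adjusted p = 2.24e-09). HOXC6 rose from 10.2, 10.1 and 10.4 CPM to 19.7, 18.8 and 18.2 CPM (log2 fold change 0.89, adjusted p = 4.68e-12). Paralogue groups 5 and 6, which pattern the thorax and forelimb level, had each of their 3 genes called, over HOXA, HOXB and HOXC alike. With library totals this also held for each tested gene of groups 3, 4, 11 and 12. Of group 12, HOXD12 was tested only because of its mutant libraries.

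The most abundant genes of HOXA also rose. HOXA5 was at 56.6, 54.9 and 54.6 CPM per kb in the mutant libraries (log2 fold change 0.79, SE 0.04, adjusted p = 3.68e-14). HOXA6 was at 42.4, 43.6 and 44.8 (0.73, adjusted p = 1.77e-12) and HOXA10 at 38.8, 38.02 and 38.65 (0.75, adjusted p = 4.04e-14). For none of these 3 genes did a mutant library come near the wild-type range. HOXB6 was at 25.7, 26.1 and 26.7 CPM per kb (0.68, adjusted p = 1.93e-12). The other called genes were HOXA3, HOXA4, HOXA11, HOXB2, HOXB3, HOXC10 and HOXD4, with log2 fold changes from 0.52 to 0.83.

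HOXC10 was at 7.10, 8.02 and 7.99 CPM per kb in the mutant libraries, and its log2 fold change of 0.52 (adjusted p = 2.90e-07) fell under 0.5 when either of wild-type replicates 1 and 2 or of mutant replicates 2 and 3 was left out. HOXB9, the most abundant HOXB gene, lay on the other side of the limit, with 29.7, 30.1 and 29.2 CPM per kb and a log2 fold change that rounds to 0.50 but was under the limit (adjusted p = 2.20e-10). HOXC4 had 10.7, 11.1 and 11.1 CPM per kb (0.49, adjusted p = 3.55e-09). HOXB9 was called without wild-type replicate 3 or mutant replicate 3 (0.51 each) and HOXC4 without mutant replicate 1 (0.51), and both were called with library totals (0.61 each) and when tested genes were limited to a mean of 1 CPM or more (0.52 and 0.51). HOXC9 and HOXD11 were called with library totals (0.55 and 0.50). HOXC9 had 13.3, 12.4 and 12.5 CPM per kb (0.44, adjusted p = 3.85e-07) and HOXB7 had 8.74, 8.63 and 8.41 (0.38, adjusted p = 9.81e-06). In all, 12 genes had an adjusted p under 0.01 with a log2 fold change between 0 and 0.5, and for 8 genes the adjusted p was 0.01 or more. HOXD10, at 30.6, 29.5 and 29.5 CPM per kb (0.34, adjusted p = 9.22e-08), and HOXD11, at 20.2, 20.2 and 19.8 (0.39, adjusted p = 3.32e-08), were among the 12. Among the 8 were HOXA2, HOXA13, HOXB13, HOXC13 and HOXD12.

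The summed levels of the clusters were each higher in the mutant, by different amounts. The summed level of HOXA was 223, 220.5 and 221 CPM per kb in the mutant libraries, 1.57-fold the wild-type mean. HOXB was at 98.4, 102 and 101 CPM per kb, 1.496-fold, and HOXC at 50.1, 50.6 and 49.9, 1.42-fold. HOXD was at 83.7, 81.5 and 82.4 CPM per kb, 1.13-fold, after 71.2, 74.0 and 74.4 in wild type. In each cluster the mutant libraries lay above the wild-type ones, and HOXD had the smallest ratio. HOXD thus went from 23.1% to 18.2% of the HOX total and HOXA from 44.5% to 48.7%. The counts of called genes were 6 of 11 in HOXA, 5 of 9 tested in HOXB, 4 of 9 in HOXC and 2 of 9 in HOXD (HOXD4 and HOXD1, the latter tested only because of its mutant libraries), with median log2 fold changes of 0.60, 0.54, 0.49 and 0.39. With library totals the counts were 7, 6, 8 and 5, the last including HOXD1 and HOXD12, both tested only because of their mutant libraries. The order of the clusters by share called thus depends on the scaling. The differences between clusters were not tested, and by the mean of log2 levels, where each gene counts alike, the difference was largest for HOXC (0.62) and smallest for HOXD (0.43).

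**Figure D3:**
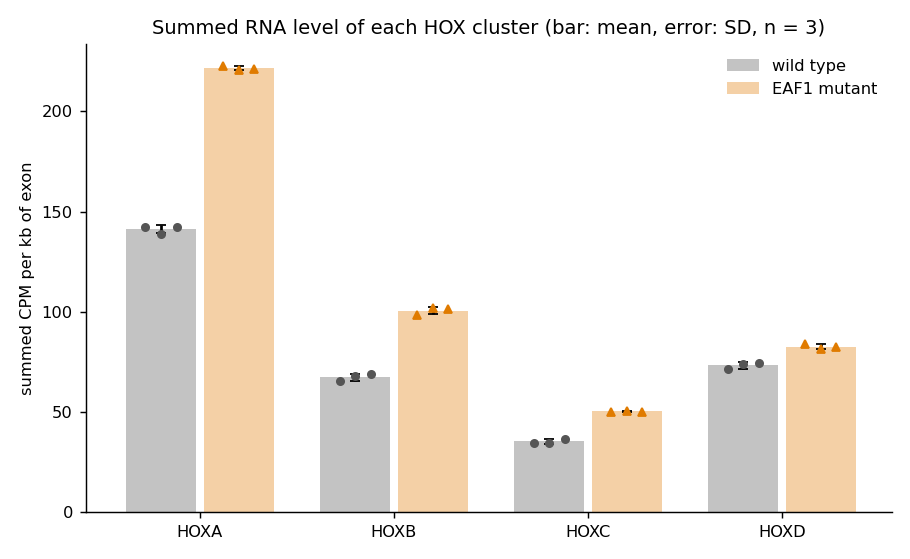
Summed CPM per kb of the genes of each HOX cluster in wild-type and EAF1-mutant libraries, with bars at the mean, error bars of 1 SD (n = 3) and a point per library. HOXA goes from 141 to 221 CPM per kb, and HOXD from 73.2 to 82.6.

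The 4 genes numbered 13 code for the factors of the posterior end of the axis, the urogenital tract and the digits. By edgeR 0 of the 4 were called and by DESeq2 0, while at an unadjusted p under 0.05 by edgeR 2 were higher and 1 lower. Of all tested genes edgeR called 11.0% higher and 9.36% lower, and 0 of 4 is near these shares. HOXA13 had 8.50, 8.84 and 8.38 CPM per kb in wild-type libraries and 9.48, 9.41 and 9.24 in mutant libraries (log2 fold change 0.13, adjusted p = 0.0104, or 0.24 and 2.17e-05 with library totals). HOXC13 had 4.13, 4.18 and 3.90 against 4.40, 4.88 and 4.497 (0.17, adjusted p = 0.0313, or 0.29 and 0.000655 with library totals). HOXB13 had 4.17, 3.81 and 4.56 against 3.96, 3.91 and 3.92, where the groups overlapped (-0.09, adjusted p = 0.263, or 0.03 and 0.765 with library totals). HOXD13 was the gene that went the other way. It was at 18.0, 16.4 and 17.4 CPM per kb in the mutant libraries, each below the lowest wild-type library at 20.5, for a log2 fold change of -0.35 (SE 0.05, adjusted p = 1.30e-06), which is within the fold limit of 0.5 and so not called. With library totals its value was -0.24. HOXD8, the third gene with a value below 0, had -0.02, or 0.09 with library totals.

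The paralogue numbers were then grouped as 1 to 3, 4 to 8, 9 to 12 and 13, a grouping made after the values were seen. Of the genes numbered 4 to 8, 9 of 15 were called, with a median log2 fold change of 0.68. Called genes were 4 of 7 tested among numbers 1 to 3 (median 0.54), with HOXD1 again among them, 4 of 12 among numbers 9 to 12 (median 0.49) and 0 of 4 for number 13 (median 0.02). With library totals the counts were 11 of 15 for numbers 4 to 8 and 5 of 7 for 1 to 3. They were 10 of 12 for 9 to 12 and 0 of 4 for 13. HOXD1 (numbers 1 to 3) and HOXD12 (numbers 9 to 12), both tested only because of their mutant libraries, are among these. The contrast in called genes between numbers 4 to 8 and 9 to 12 thus depends on the scaling. The medians of these groups moved together, to 0.80 and 0.61, which leaves their difference as it was. With TMM the called genes among numbers 9 to 12 were HOXA10, HOXA11, HOXC10 and HOXC12, and the 4 genes numbered 9 lay between 0.15 and 0.50. Groups 7, 8 and 9 had 0 called genes by edgeR and by DESeq2 (2, 2 and 4 higher and 0 lower at an unadjusted p under 0.05), with medians of 0.32 over 2 genes, 0.25 over 3 and 0.46 over 4. With library totals 0, 1 and 3 of them were called by edgeR. With TMM edgeR called 11.0% of all tested genes higher and 9.36% lower, and 0 called among 2, 3 and 4 genes is near these shares. As a share of the HOX total, group 13 went from 12.3% to 7.73% and groups 4 to 8 from 37.8% to 42.6%. The correlation between number and change differed by cluster, with rho of 0.25 in HOXA, -0.77 in HOXB, -0.32 in HOXC and -0.47 in HOXD, and over all 38 genes it was -0.30. Without group 13 it was 0.55 over 10 genes in HOXA, -0.67 over 8 in HOXB, -0.02 over 8 in HOXC, -0.24 over 8 in HOXD and -0.05 over all 34. These are descriptions across genes that share libraries. Those for HOXD and for all genes include HOXD1 and HOXD12, tested only because of their mutant libraries, and were not computed without them.

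A ratio within a library does not depend on the scaling between libraries. The level of gene 13 was divided by the summed level of the other genes of its cluster, a measure chosen after the values were seen. For HOXA13 the ratio was 0.0636, 0.0680 and 0.0626 in wild-type libraries and 0.0445, 0.0446 and 0.0436 in mutant libraries. For HOXB13 it was 0.0684, 0.0596 and 0.0712 against 0.0420, 0.03997 and 0.0402. For HOXD13 it was 0.405, 0.438 and 0.447 against 0.273, 0.251 and 0.268, and for HOXC13 0.136, 0.137 and 0.119 against 0.0962, 0.107 and 0.0990. In all 4 clusters the libraries of the groups did not overlap, and the log2 ratios of the means were -0.55 for HOXA, -0.71 for HOXB, -0.38 for HOXC and -0.70 for HOXD. The ratio shows unequal change within a cluster and not which of its terms changed.

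**Figure D4:**
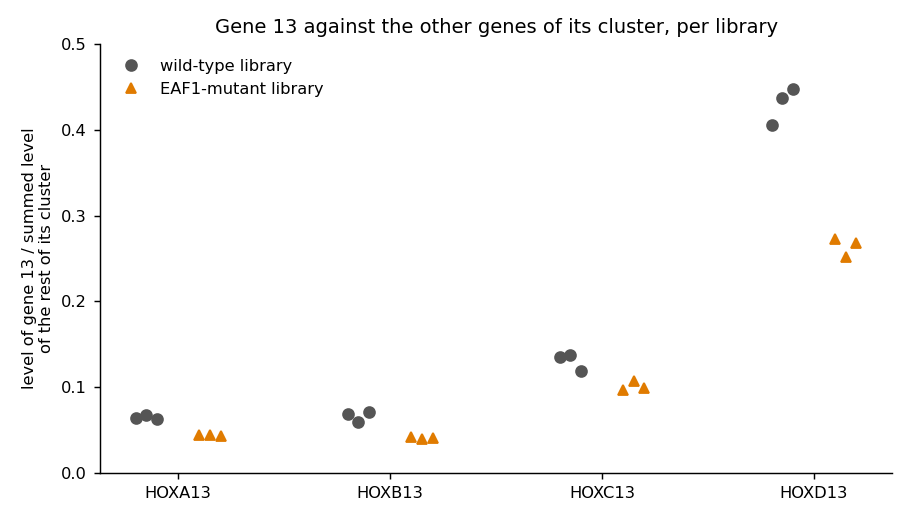
Level of the gene numbered 13 divided by the summed level of the other genes of its cluster, in each of 3 wild-type (circles) and 3 EAF1-mutant (triangles) libraries. Mutant libraries lie below wild-type libraries in each of the 4 clusters, for HOXD13 at 0.251 to 0.273 against 0.405 to 0.447.

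The promoters of HOXD13, HOXA13 and HOXA11 are shown, chosen after the values were seen, because HOXD13 had the lowest log2 fold change of the HOX genes, HOXA13 is its paralogue and HOXA11, the neighbour of HOXA13, rose from 30.5, 29.0 and 31.7 CPM to 55.0, 53.4 and 54.4 CPM (log2 fold change 0.83, adjusted p = 1.32e-13). The window that RefSeq gives for both HOXC4 and HOXC5 is added. These neighbours had log2 fold changes of 0.49 and 0.97. In the annotation used here for positions, HOXC4 starts next to this window, at chr12:54016931, and HOXC5 only further downstream, at chr12:54033050. The window thus need not be the promoter of the HOXC5 RNA that was counted. The windows are chr2:176092471-176092720 (plus strand), chr7:27200092-27200341 and chr7:27185233-27185482 (minus strand) and chr12:54016638-54016887 (plus strand), with capitals as before.
HOXD13: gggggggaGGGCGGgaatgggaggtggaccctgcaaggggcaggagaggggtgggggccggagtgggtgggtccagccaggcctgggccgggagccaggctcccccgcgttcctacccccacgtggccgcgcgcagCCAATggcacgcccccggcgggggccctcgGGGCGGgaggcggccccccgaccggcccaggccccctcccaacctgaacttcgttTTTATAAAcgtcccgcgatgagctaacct
HOXA13: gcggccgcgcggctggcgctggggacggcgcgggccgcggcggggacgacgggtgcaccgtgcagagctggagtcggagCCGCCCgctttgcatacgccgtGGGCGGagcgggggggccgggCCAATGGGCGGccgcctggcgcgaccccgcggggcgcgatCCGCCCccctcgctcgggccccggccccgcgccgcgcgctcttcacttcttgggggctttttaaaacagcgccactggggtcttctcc
HOXA11: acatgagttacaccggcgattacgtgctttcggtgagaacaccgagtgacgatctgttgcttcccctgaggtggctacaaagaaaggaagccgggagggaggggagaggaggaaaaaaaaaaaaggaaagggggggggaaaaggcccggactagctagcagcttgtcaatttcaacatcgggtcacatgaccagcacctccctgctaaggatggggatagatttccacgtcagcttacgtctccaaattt
HOXC4 and HOXC5: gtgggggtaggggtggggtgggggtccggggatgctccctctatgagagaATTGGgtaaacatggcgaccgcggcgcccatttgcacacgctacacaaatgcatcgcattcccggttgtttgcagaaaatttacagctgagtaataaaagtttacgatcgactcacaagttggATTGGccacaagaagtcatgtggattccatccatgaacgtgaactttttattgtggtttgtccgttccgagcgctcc

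The HOXD13 window had 74.0% G and C, 1 match to CCAAT, 2 to GGGCGG and 2 overlapping matches to TATAAA, on opposite strands, close to the start. The HOXA13 window had 78.0% G and C, the highest of the 26 HOX windows, with 4 matches to GGGCGG and 1 to CCAAT. In the HOXA11 window, with 51.6% G and C, 0 of the 5 motifs matched. The shared HOXC4 and HOXC5 window had 50.8% G and C and 2 matches to CCAAT.

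Noncoding RNAs interleaved with the HOX genes moved in the same direction. Of 24 listed, 23 were tested, 12 were called higher and 0 lower by edgeR (11 and 0 by DESeq2, and 19 higher and 0 lower at an unadjusted p under 0.05). That is 52.2% higher, beside 11.0% higher and 9.36% lower of all tested genes, and the median log2 fold change was 0.60 beside 0.01. Of the 12, MIR196A2 passed the filter only through its mutant libraries. HOXC-AS2 had 5.31, 5.14 and 5.29 CPM in wild-type and 11.7, 10.6 and 11.2 CPM in mutant libraries (log2 fold change 1.09, adjusted p = 7.37e-12). HOXA11-AS, transcribed opposite HOXA11, had 21.1, 20.1 and 22.0 against 38.4, 37.97 and 37.9 CPM (0.85, adjusted p = 2.59e-13). HAGLR, opposite HOXD1, and HOXB-AS3 rose by 0.83 and 0.82. Among the others, HOTAIR, an RNA of the HOXC cluster, stood at 0.39 on the log2 scale (adjusted p = 2.30e-05), and HOTTIP, at the group 13 end of HOXA, had 0.20 (adjusted p = 0.110). Their exons overlap those of HOX genes on the opposite strand in many places, so these are not independent of the HOX counts unless strand was used. Among the 22 tested HOX genes with under 10% of exon bases shared with other counted genes on either strand, a choice made after the data were seen, 8 were higher and the median was 0.46.

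Genes around the clusters were taken as protein-coding genes starting within 1 Mb of either end. Of 78 tested, 14 were called higher and 3 lower (17.9% and 3.85%, against 11.0% and 9.36% of all tested genes), and the median log2 fold change was 0.12. Around HOXC 21.6% were called higher, against 11.2% of the tested genes of chromosome 12, and around HOXB 17.2%, against 8.27% for chromosome 17. Around HOXA it was 1 of 8 genes (12.5%, against 8.84% for chromosome 7), and around HOXD 0 of 4 were called higher by edgeR (0 by DESeq2, 0 at an unadjusted p under 0.05), against 11.6% for chromosome 2. Of these 4, ATP5MC3, named after its value was seen, was called lower at -0.53 (25.0%, against 4.97% for chromosome 2), and 3 were lower at an unadjusted p under 0.05. Around HOXB and HOXC 1 gene each was called lower (3.45% and 2.70%, against 2.14% and 3.34% for their chromosomes). Around HOXA 0 of 8 were called lower by edgeR and DESeq2 (2 at an unadjusted p under 0.05), against 11.9% by edgeR for chromosome 7. By cluster the median was 0.01 around HOXA (8 genes), 0.14 around HOXB (29), 0.22 around HOXC (37) and -0.20 around HOXD (4). The medians of all tested genes of the same chromosomes apart from HOX genes were 0.01 for chromosome 7, 0.07 for 17, 0.04 for 12 and 0.05 for 2. Named after their values were seen, SKAP2, beyond the group 1 end of HOXA, was higher by 0.74 on the log2 scale (adjusted p = 3.98e-11), CALCOCO1, beyond the group 13 end of HOXC, reached 1.09 (adjusted p = 1.52e-15), and ITGA5, an integrin gene beyond the other end of HOXC, had -0.72 (adjusted p = 2.04e-11). The surrounding genes thus had smaller medians than the HOX genes of their cluster, with no test of the difference. A further 4 protein-coding genes start inside the clusters, and the 3 that were tested, 2 of them unnamed genes whose exons overlap HOX exons and the third PRAC2, were called higher.

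**Figure D5:**
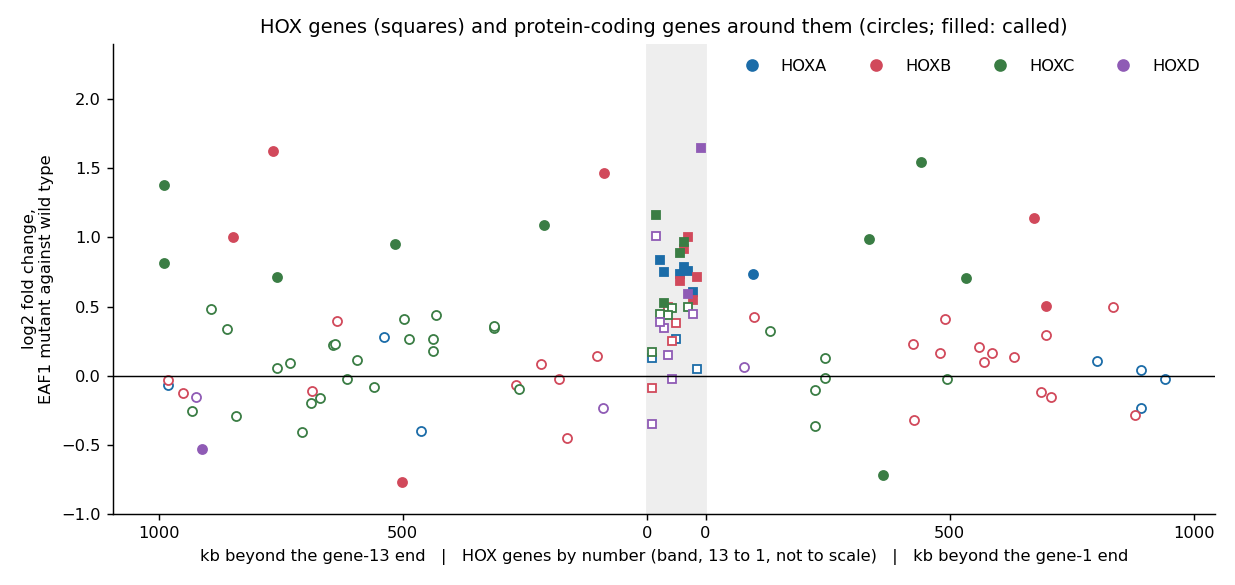
Log2 fold change of HOX genes (squares, 1 of the 38 not drawn, in a band ordered from group 13 to group 1 and not to scale) and of protein-coding genes starting up to 1000 kb beyond either end (circles), coloured by cluster and filled where called. The 78 surrounding genes scatter around a median of 0.12, and the HOX genes around 0.50.

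HOX proteins bind DNA with partners of the TALE class, and 9 of 9 of these were tested, with 1 higher and 1 lower (11.1% each, near the 11.0% and 9.36% of all tested genes). PBX4 rose from 2.00, 1.96 and 1.87 CPM to 2.69, 2.84 and 2.75 CPM (log2 fold change 0.51, adjusted p = 0.00102), and it lost the call under DESeq2 and when wild-type replicate 3 or mutant replicate 2 was left out. The median of the list was 0.01. Polycomb complexes keep HOX genes silent outside their domains. Of 12 tested genes of Polycomb repressive complex 2, PHF1 was higher (0.56) and EZH2, the catalytic subunit, and MTF2 were lower (-0.53 and -0.57), or 8.33% and 16.7% beside 11.0% and 9.36% of all tested genes, with a list median of 0.05. EZH2 was at 104, 110 and 107 CPM in wild-type and 75.2, 73.3 and 73.7 CPM in mutant libraries (adjusted p = 3.18e-11). Of 18 tested genes of Polycomb repressive complex 1, RING1 (0.60) and CBX7 (0.51) were higher and RYBP (-0.56) and BMI1 (-0.51) lower, 11.1% each way, with a list median of -0.17. At an adjusted p under 0.01 and any fold 4 of the 18 were higher and 10 lower, beside 20.5% and 21.1% of all tested genes. With library totals the calls of EZH2, MTF2, RYBP and BMI1 were lost, at -0.42, -0.45, -0.45 and -0.40, and CBX7 was not called by DESeq2 or without wild-type replicate 2. BMI1 was also not called without mutant replicate 2 or 3, or among genes averaging 1 CPM or more.

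The MLL and trithorax genes, which maintain active HOX genes, had 0 of 15 called in either direction by edgeR and 0 by DESeq2. Of all tested genes, edgeR called 11.0% higher and 9.36% lower. At an adjusted p under 0.01 and any fold 2 of the 15 were higher and 4 lower, beside 20.5% and 21.1% of all tested genes. There were 4 higher and 6 lower at an unadjusted p under 0.05, and the median was -0.02. Genes of cohesin, its loader and CTCF, which shape chromatin loops at HOX clusters, had 0 of 11 called by edgeR and 0 by DESeq2. The shares of all tested genes were again 11.0% higher and 9.36% lower. At an adjusted p under 0.01 and any fold 2 of the 11 were higher and 6 lower, beside 20.5% and 21.1% of all tested genes. The counts were also 2 and 6 at an unadjusted p under 0.05, and the median was -0.15. Retinoic acid activates anterior HOX genes in embryonic cells, and of 17 tested genes of its pathway 3 were higher and 1 lower (17.6% and 5.88%, beside 11.0% and 9.36% of all tested genes), with a median of 0.02. ALDH1A3, which makes retinoic acid, rose from 3.20, 2.67 and 3.01 CPM to 9.13, 9.01 and 8.70 CPM (log2 fold change 1.59, adjusted p = 3.53e-13). RXRB and CYP26A1, a receptor and an enzyme that degrades retinoic acid, were higher at 0.58 and 0.57, and the receptor RARB was lower at -1.09 (adjusted p = 4.68e-12). Among ParaHox genes and upstream axial regulators 3 of 6 tested were higher and 0 lower by edgeR and by DESeq2 (4 and 1 at an unadjusted p under 0.05). That is 50% higher, beside 11.0% higher and 9.36% lower of all tested genes, over only 6 genes. The called genes of this list included GBX2 and, at a mean under 1 CPM, EGR2, which passed the filter only through its mutant libraries. GBX2, at 0.58, was not called without wild-type replicate 3 or mutant replicate 3.

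Homeobox genes outside the HOX clusters were listed after the values were seen. Of 139 listed 106 were tested, and 22 were called higher and 8 lower, or 20.8% and 7.55%, against 11.0% and 9.36% of all tested genes. Of the 22, DBX2, IRX4, ONECUT3, POU4F2 and SHOX passed the filter only through their mutant libraries. The median log2 fold change of the list was 0.04, beside 0.01 for all tested genes. HHEX (1.24), NKX1-2 (1.22) and MSX2 (0.99) were among the genes called higher. MSX2, a gene of limb and skull development, went from 25.9, 25.9 and 24.9 CPM to 52.3, 50.2 and 50.2 CPM (adjusted p = 4.66e-15).

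Markers of the cell line also differed between the groups. Of 8 HEK293T-like markers all were tested, 2 were higher and 3 lower (25.0% and 37.5%, beside 11.0% and 9.36% of all tested genes here and for the lists that follow), and their summed level was 560, 568 and 590 CPM in wild-type and 404, 403 and 413 CPM in mutant libraries. VIM, the most abundant of them, fell from 374, 376 and 391 CPM to 197, 197 and 204 CPM (log2 fold change -0.93, adjusted p = 5.66e-16), NEFM and NES were lower at -1.31 and -0.64, and the keratins KRT8 and KRT18, which also lie within 1 Mb of HOXC, were higher at 1.38 and 0.82. Of 8 colon epithelium markers 4 had a mean under 0.5 CPM (CDX1, LGALS4, CDH17 and KRT20), 0 were at 0 in all libraries, EPCAM and CDH1 were called higher and 0 lower by edgeR and by DESeq2 (1 lower at an unadjusted p under 0.05), which is 2 of 4 tested. EPCAM, an epithelial adhesion gene, went from 0.248, 0.257 and 0.224 CPM to 1.63, 1.37 and 1.38 CPM (log2 fold change 2.57, adjusted p = 6.22e-10), and CDH1, coding for E-cadherin, from 1.22, 1.29 and 1.42 CPM to 3.36, 2.97 and 3.17 CPM (1.27, adjusted p = 1.37e-08). These are low levels, and the sum of the colon list, led by VIL1, was 47.1, 48.0 and 45.8 CPM against 51.1, 50.3 and 52.0. The blood markers summed to 2.26, 2.33 and 2.11 CPM against 2.1997, 2.37 and 2.43, with 6 of 7 under 0.5 CPM and 0 at 0 in all libraries. The fibroblast markers, led by COL1A1, summed to 5.13, 5.38 and 6.24 CPM against 4.67, 5.36 and 5.00, with 4 of 6 under 0.5 CPM, 0 at 0 in all libraries, and 1 higher (COL1A1, not called without wild-type replicate 1) and 2 lower (COL3A1 and LUM, the latter tested only because of its wild-type libraries) of 4 tested. COL3A1, a collagen gene, fell from 2.28, 1.84 and 2.17 CPM to 0.336, 0.665 and 0.405 CPM (log2 fold change -2.18, adjusted p = 2.43e-09), while COL1A1 was higher by 0.54. Markers of other cell types thus changed in both directions, at low levels. The part of these changes in the HOX result was not tested. In bulk RNA, fewer cells that express a gene and less RNA per cell cannot be told apart.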

How the data were processed

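Ribosomal RNA-depleted total RNA of 3 wild-type and 3 EAF1-mutant HEK293T libraries was analysed, with groups taken from the labels. The authors mapped trimmed reads to GRCh38 with HISAT2, counted them per Ensembl gene with Rsubread and deposited raw counts. The library kit was stranded, but no counting settings for strand or for multi-mapped and multi-overlapping reads were found in the labels or methods. Symbols, positions and exon lengths came from GENCODE release 44, which matched 57754 of 58395 genes. The 641 others held 2.81% of the counts.

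Deposited counts were scaled, filtered and tested with edgeR 4.0.16 (TMM, filterByExpr, quasi-likelihood test, Benjamini-Hochberg over 28025 genes) in R 4.3.3. A call required both an adjusted p below 0.01 and an absolute log2 fold change above 0.5. Log2 levels used a prior count of 2. DESeq2 1.42.0 and the other alternatives are described at the end. The fits were tested on simulated data, where DESeq2 missed most changes in genes with few counts, which edgeR mostly found. The first pass criterion was not met for that reason and was then relaxed for DESeq2 in such genes, so a lack of DESeq2 calls says little about them. Python 3.11.15 read the promoter windows and matplotlib 3.10.9 drew the figures. Between replicates the biological coefficient of variation was 4.11%.

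Genes named were the 3 HOX genes with the highest wild-type level per kb in each cluster, the 6 largest rises and falls among called HOX genes, up to 4 called genes per list with the largest change and a mean of at least 1 CPM, and EAF1. Not every gene that this rule takes is described. Some genes outside it are described as well, such as HOXD12, HOXA13, HOXB13, HOXC13, HOTAIR, EPCAM and SKAP2. Members and lists were chosen with earlier results of these data known.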

Additional observations from a re-analysis of the deposited data

How the results depend on the processing

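The 17 genes called higher by edgeR were the 17 called by DESeq2, and the same 17 were among the 26 called with library totals. The count stayed between 16 and 20 with other filters on low counts or without any single library, and 0 genes were lower in each of these. The replicate numbers did not pair the samples: deviations of same-numbered libraries correlated at -0.01, -0.02 and 0.01. With the replicate number as a block (replicate block), 17 genes were higher and 0 lower, with a median log2 fold change of 0.50.

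With library totals the median was 0.61, the wild-type sums were 136 (HOXA), 64.6 (HOXB), 33.9 (HOXC) and 70.3 CPM per kb (HOXD), and the log2 ratios of mutant to wild type were 0.77, 0.70, 0.62 and 0.29. All these moved because the TMM factors of the groups differed. With the longest transcript in place of all exon bases the wild-type sums were 173, 78.7, 42.7 and 86.9 CPM per kb, since the lengths are shorter, and the log2 ratio of HOXD was 0.20. With means of log2 levels, where each gene counts alike, the wild-type values were 3.13, 1.63, 1.37 and 1.30 and the differences 0.51, 0.53, 0.62 and 0.43. At an adjusted p under 0.05 and any fold, 33 genes were higher and 1 lower. Among genes with under 10% exon overlap, chosen after the data were seen, 8 were higher with a median of 0.46, where fewer genes were counted. Leaving out single libraries gave log2 ratios from 0.64 to 0.66 for HOXA, 0.56 to 0.60 for HOXB, 0.49 to 0.54 for HOXC and 0.15 to 0.19 for HOXD, and medians from 0.48 to 0.51.

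For the called HOX genes and the genes taken by the naming rule above, 603 values under the alternatives were compared. Of these, 575 kept direction and side of the threshold, 19 lost the call, 9 gained it and 0 reversed. Other described genes are not in this count. Among them HOXD12, tested only because of its mutant libraries, was called with library totals (1.13, adjusted p = 0.00960 by edgeR). Genes with few counts, such as HOXD1, HOXD12 and HOXC12, have wide intervals. Counts of overlapping HOX genes depend on how the authors treated shared and antisense reads, which was not tested.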
